A study of Mus musculus with 4 samples.

Results

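The 4 Hox gene clusters were examined by reduced representation bisulfite sequencing (RRBS) of mouse embryonic stem (ES) cells, which reads CpG methylation where the enzyme MspI cuts. In mm9 coordinates the clusters are HoxA on chromosome 6, HoxB on chromosome 11, HoxC on chromosome 15 and HoxD on chromosome 2, taken as fixed intervals of 115, 182, 127 and 115 kb. A cytosine was a member if it lay in one of these intervals and was read at least 10 times in every library. This gave 6197 of 1899909 cytosines, of which 1708 lay in HoxA, 1512 in HoxB, 1219 in HoxC and 1758 in HoxD. Of the 121563 windows of 1 kb with at least 3 such cytosines, 227 lay in the clusters, 51 in HoxA, 70 in HoxB, 54 in HoxC and 52 in HoxD. No methylation value was used to choose them.

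The libraries were 2 of wild-type (WT) cells and 2 of cells labelled Naa10-KO. Naa10, an X-linked gene, encodes the catalytic subunit of the NatA N-terminal acetyltransferase. Both genotypes were grown in N2B27 medium with LIF, a Mek inhibitor and a Gsk3 inhibitor on irradiated mouse embryonic fibroblast feeders, and were kept without feeders for several passages before DNA was taken. This medium is known for lowering CpG methylation in ES cells, and it was shared by all 4 libraries. The labels do not give the knockout allele, the sex of the lines, or whether replicates are separate lines or cultures, so the spread between replicates may be technical. The knockout itself was not checked here, since only methylation was measured. The deposited calls summed to between 68586396 and 79540412 per library, and the median member cytosine was read 33 and 29 times in the WT and 27 and 28 times in the KO libraries. Values below are in percent and in the order WT replicate 1, WT replicate 2, KO replicate 1 and KO replicate 2.

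Hox genes encode homeodomain transcription factors that give the parts of the body axis their identity. They lie in clusters whose gene order follows the order of their expression along the head-to-tail axis. In ES cells they are known to be silent under Polycomb proteins and to lie in dense runs of CpG islands, which are usually free of methylation. The CpGs between the islands can be methylated.

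The deposited positions are in mm9 and no annotation of that build was used here. Promoters were therefore located by matching the spacing of CpGs in the promoter sequences of RefSeq (GRCm38.p6) to the spacing of the listed cytosines, without converting coordinates. Of 39 Hox genes, 22 had a sequence, 17 were placed and 14 had member cytosines in the promoter, counted from 250 bases before to 50 bases after the start. Of the 17, 12 met the placement rule chosen first and 5 (Hoxa13, Hoxb8, Hoxd1, Hoxd11 and Hoxd13) met a wider rule chosen after seeing the data. The 250 bases before the start are printed for 4 genes, 5′ to 3′ on the gene's strand, with each CpG that held a member cytosine in capitals. Hoxd4 is shown because it was the most methylated promoter, Hoxd12 because it was intermediate, Hoxa11 because it was the Hox promoter with both KO libraries above both WT libraries, and Hoxd13 as an unmethylated CpG-rich example.
Hoxd4: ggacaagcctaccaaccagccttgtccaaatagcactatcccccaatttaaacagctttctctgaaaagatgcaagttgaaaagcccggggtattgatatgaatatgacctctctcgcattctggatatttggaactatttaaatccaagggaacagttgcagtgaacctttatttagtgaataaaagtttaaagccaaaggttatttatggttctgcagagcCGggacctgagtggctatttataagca
Hoxd12: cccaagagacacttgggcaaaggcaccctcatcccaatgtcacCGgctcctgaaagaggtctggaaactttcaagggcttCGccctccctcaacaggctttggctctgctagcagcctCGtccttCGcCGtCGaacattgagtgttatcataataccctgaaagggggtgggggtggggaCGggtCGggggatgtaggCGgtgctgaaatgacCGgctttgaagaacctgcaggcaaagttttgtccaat
Hoxa11: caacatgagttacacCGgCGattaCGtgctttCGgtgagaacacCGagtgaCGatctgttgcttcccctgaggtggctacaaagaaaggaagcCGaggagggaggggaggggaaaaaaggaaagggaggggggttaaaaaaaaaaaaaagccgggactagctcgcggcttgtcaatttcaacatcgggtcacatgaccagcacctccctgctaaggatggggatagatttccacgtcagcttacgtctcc
Hoxd13: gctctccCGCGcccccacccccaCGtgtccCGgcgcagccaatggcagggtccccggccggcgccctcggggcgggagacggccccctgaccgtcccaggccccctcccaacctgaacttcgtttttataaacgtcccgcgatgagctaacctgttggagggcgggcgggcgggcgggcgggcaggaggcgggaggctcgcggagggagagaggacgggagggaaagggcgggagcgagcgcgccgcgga
The 300 bases of the Hoxd4 promoter hold 4 CpGs, against 13 for Hoxd12, 15 for Hoxa11 and 37 for Hoxd13.

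All 4 clusters were poorly methylated in WT cells and lower still in KO cells. The mean over HoxA cytosines was 6.92, 7.04, 3.66 and 2.27%, that over HoxB 10.0, 10.1, 6.004 and 3.62%, that over HoxC 10.51, 10.9, 5.04 and 3.58%, and that over HoxD 8.47, 8.81, 4.65 and 2.58%. In each cluster the KO libraries were lower than the WT libraries, and KO replicate 2 lay below KO replicate 1. The KO mean was lower by 4.01 points in HoxA, 5.27 in HoxB, 6.38 in HoxC and 5.02 in HoxD. With 2 libraries against 2, p was 0.333 for each cluster by an exact permutation test (two-sided), also after Benjamini-Hochberg adjustment over the 4, and this is the smallest p the design allows. Over all Hox cytosines WT cells stood at 8.94% ± 0.158 (SD, n = 2), and KO cells stood at 3.87% ± 1.30 (SD, n = 2). The KO mean was thus 43.3% of the WT mean, while over all covered cytosines of the genome it was 28.8%. By cluster this share was 42.5% in HoxA, 47.7% in HoxB, 40.3% in HoxC and 41.8% in HoxD. No methylated call was seen in any library at 29.5% of the Hox cytosines.

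**Figure D1:**
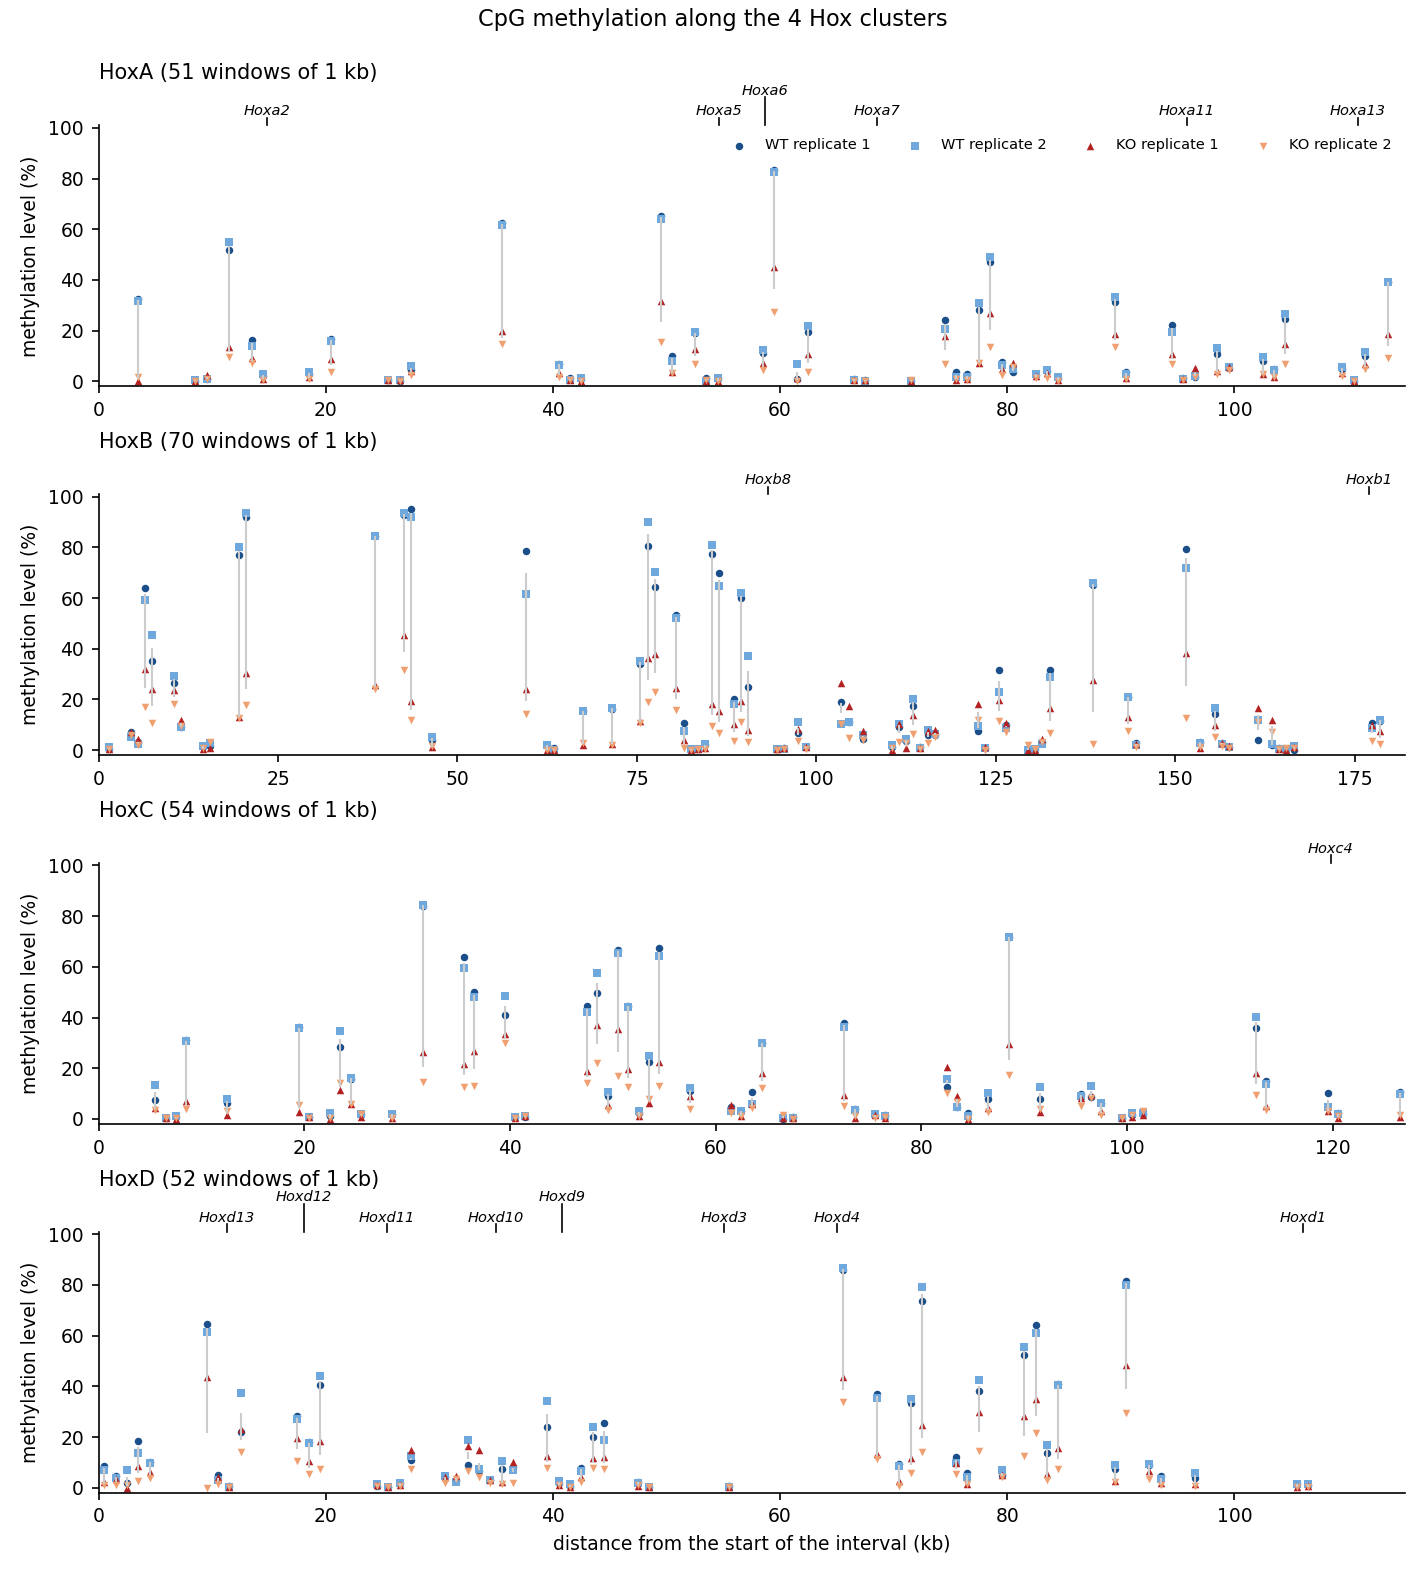
Methylation level (percent, vertical axis) of each 1 kb window against its distance in kb from the start of the interval, for HoxA, HoxB, HoxC and HoxD, with 1 mark per library. In every cluster most windows are under 20% in WT, and in HoxB the higher ones lie mostly on the Hoxb13 side of the Hoxb8 promoter. The KO mean reaches 50% or more in none of the 227 windows.

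The DNA next to the clusters was also lower in KO cells, from WT levels that varied widely between clusters. In the 100 kb on each side of HoxA the mean was 24.4, 23.6, 10.3 and 6.17% over 338 cytosines. Around HoxB it was 44.9, 44.5, 14.6 and 9.93% over 250 cytosines, and around HoxC 29.2, 28.5, 7.92 and 5.60% over 204. Around HoxD it was only 5.43, 5.29, 1.73 and 0.900% over 292 cytosines, so HoxD was the cluster whose surroundings were less methylated than itself in every library. The flanks kept 34.3% of the WT level in KO around HoxA, 27.5% around HoxB, 23.4% around HoxC and 24.5% around HoxD. Each of these shares is smaller than that of the cluster it borders. The differences between clusters and flanks were not tested.

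Windows of 1 kb were tested over the whole genome with edgeR's quasi-likelihood test, and a window was called changed where its adjusted p was below 0.05 and the group means were at least 10 percentage points apart. In the clusters 68 of 227 windows fell in KO, 14 in HoxA, 21 in HoxB, 16 in HoxC and 17 in HoxD, a share of 30.0% where 76.3% of all windows fell. None rose, against 0.00247% of all windows. Dropping the minimum difference gave 1 Hox window higher in KO, in HoxB, where 0.134% of all windows were, and the same window was the one higher at an unadjusted p below 0.05, while limma also called none. Each KO library was lower than each WT library in 162 Hox windows, or 71.4%, against 89.0% of all windows. Each was higher in 9 Hox windows, or 3.96%, against 1.25%, and the remaining 56 overlapped. That comparison does not match windows for covered cytosines, and the classes given below did not all go the same way. The number that fell was 47 without WT replicate 1 and 45 without WT replicate 2. In HoxA it was 6 without either of them, in HoxD 11 without either, and in HoxC 10 without WT replicate 2.

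The calls followed the WT level. A WT mean of 20% or more was reached by 68 Hox windows, 13 in HoxA, 22 in HoxB, 17 in HoxC and 16 in HoxD. Of these, 62 fell, which is 91.2% where 99.7% of such windows fell across the genome. Among the 159 Hox windows under 20%, 6 fell, and among all 30915 such windows of the genome 2451 fell. The median Hox window stood at 8.21% in WT and 3.97% in KO, whereas the median of all windows stood at 77.5% and 15.8%. In 64 of the 68 methylated windows KO replicate 2 was below KO replicate 1. In the median of these 68 windows KO kept 36.0% of the WT level, while the median over all windows of 20% or more was 26.7%. WT levels of 50% or more were found in 31 Hox windows, 15 of them in HoxB, and KO means of 50% or more in none.

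The 6 methylated windows that were not called were 4 in HoxB, 1 in HoxC and 1 in HoxD. In HoxB the window at 96060001 held 10 cytosines at 26.5, 29.3, 23.6 and 18.3%, and that at 96175001 held 12 cytosines at 31.8, 23.0, 19.8 and 11.5%. The KO libraries were lower in both, but the edgeR adjusted p was 0.321 and 0.0565. The other 2 HoxB windows, at 96182001 and 96193001, held 3 cytosines each and had adjusted p-values of 0.0645 and 0.0620. The HoxC window at 102784001 held 3 cytosines at 41.0, 48.5, 33.3 and 30.0% on 30 to 39 calls per library, with an adjusted p of 0.346. In the HoxD window at 74507001 the genotypes overlapped, at 21.95, 37.3, 23.3 and 14.3%. A missing call does not show that the level stayed the same. The deepest fall in proportion was in HoxA, where the window at 52103001 stood at 32.7, 31.6, 0 and 1.79%, and its 0 of 72 calls in KO replicate 1 allows a level of up to 4.17%.

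In HoxA the 5 highest windows in WT lay apart along the cluster. The highest, at 52159001, lies 330 bases upstream of the inferred start of Hoxa6, a gene of the central group, and stood at 83.3, 82.6, 45.2 and 27.3%. It fell by 46.7 points (edgeR adjusted p = 4.19e-09), and the WT libraries differed from each other by far less than from either KO library. The windows at 52149001, 52135001 and 52111001 fell from WT means of 64.7, 62.1 and 53.4% to 23.6, 17.2 and 11.7%. In the one at 52111001, which lies 2.83 kb downstream of the start of Hoxa2, the KO mean was 21.8% of the WT mean. The fifth, at 52178001, stood at 46.9, 49.1, 26.9 and 13.6%, and its adjusted p rose from 5.54e-04 to 0.0664 without WT replicate 1 and to 0.0857 without WT replicate 2. Over the other alternatives it lay between 5.88e-07 and 0.00102.

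HoxB held the most methylated windows of the 4 clusters. The window at 96093001 stood at 95.3, 92.0, 19.5 and 11.8% on 41 to 76 calls per library, a fall of 78.0 points (edgeR adjusted p = 2.01e-14). Its neighbour at 96092001 started as high, at 92.6 and 93.5%, but stood at 45.5 and 31.7% in KO. Adjacent windows with the same WT level thus kept 16.7% and 41.5% of it, a contrast seen in both KO libraries and not tested. The windows at 96070001, 96126001 and 96088001 fell from WT means of 92.8, 85.2 and 84.6% to 24.3, 27.7 and 24.8%. All 5 lie on the Hoxb13 side of the Hoxb8 promoter.

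The methylation of HoxB was uneven along the cluster, as the profile shows. Hoxb13 is set apart from the rest of the cluster by a long stretch without other Hox genes. On the Hoxb13 side of the Hoxb8 promoter, 13 of 33 windows had a WT level of 50% or more and 19 fell, with window means of 36.5, 37.0, 13.8 and 8.84%. On the other side, which holds the start of Hoxb1, 2 of 37 windows reached 50% and 2 fell, with means of 10.6, 10.498, 8.65 and 4.02%. KO kept 30.8% of the WT mean on the first side and 59.95% on the second. This boundary was drawn after the values were seen, so no test was made. HoxB also held the longest run of windows under 20% in WT, 30 kb from 96144001 to 96174000. Over its 16 windows the median was 5.18, 6.16, 7.48 and 2.99%, so KO replicate 1 lay above both WT libraries and KO replicate 2 below them. The longest such runs in the other clusters were 15 kb in HoxA, 14 kb in HoxC and 15 kb in HoxD. These runs skip windows with fewer than 3 member cytosines, and they are not all free of methylated sites. The HoxB run holds the cytosine at 96169508, at 80.0, 88.2, 50.0 and 21.4%. It also holds those from 96168051 to 96168113, at 74.9, 71.2, 37.7 and 31.9%. The HoxA run holds the cytosine at 52121682 and the HoxD run that at 74592502, with WT means of 65.9 and 94.4%.

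In HoxC the highest window, at 102776001, held 20 cytosines at 84.1, 84.5, 26.4 and 14.8%. It fell by 63.7 points (edgeR adjusted p = 1.98e-17) on 549 to 724 calls per library. The windows at 102833001, 102795001, 102799001 and 102780001 had WT means of 71.7, 66.2, 65.9 and 61.7% and fell to 23.4, 26.3, 17.7 and 17.2%. In all 5 the WT libraries lay closer to each other than the KO libraries did. Hoxc4 was the one HoxC gene with a placed promoter, so most of these windows are not tied to a gene here.

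In HoxD the highest window covers the start of Hoxd4, a gene whose expression reaches the hindbrain. The window, at 74560001, stood at 85.9, 86.8, 43.6 and 33.8% and fell by 47.6 points (edgeR adjusted p = 3.60e-09). The windows at 74585001, 74567001 and 74577001 fell from WT means of 80.8, 76.4 and 62.5% to 38.95, 19.5 and 28.4%. The window at 74504001, 1.28 kb upstream of the start of Hoxd13, stood at 64.7, 61.3, 43.6 and 0%. Its KO libraries differed from each other by more than the group means did, and the 0 of 30 calls in KO replicate 2 allows a level of up to 10.0%. Without KO replicate 2 the fall was 19.4 points and the adjusted p 0.0836, while the other alternatives gave between 5.14e-06 and 0.0265. Between Hoxd4 and Hoxd1, 5 of 20 windows had a WT level of 50% or more, against 1 of 32 on the Hoxd13 side of Hoxd4, again along a boundary drawn after the values were seen.

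Methylated spots were defined as runs of cytosines with a WT mean of 50% or more, less than 100 bases from one to the next. There were 92 spots with 330 cytosines, 13 in HoxA, 29 in HoxB, 21 in HoxC and 29 in HoxD. Most were small, since 36 held a single cytosine and the median length was 11.5 bases. Of the 330 cytosines 256 fell, or 77.6%, against 95.6% of all cytosines of the genome at such a WT level. The WT values chose the spots, so these counts describe them and test nothing. In 323 of the 330 the KO libraries were both lower than the WT libraries. The median spot stood at 66.7% in WT and 22.8% in KO.

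**Figure D2:**
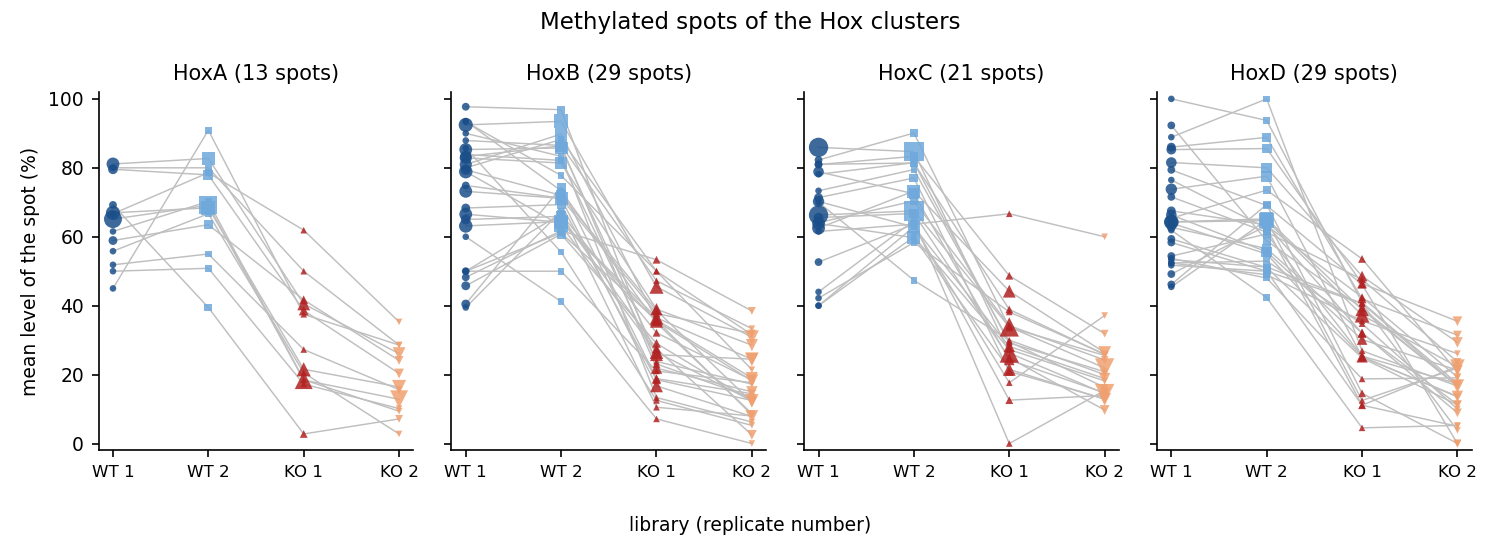
Mean level (percent, vertical axis) of each methylated spot in each library (horizontal axis), with a panel per cluster. Grey lines join the libraries of a spot, and marks are larger for spots of more cytosines. In all but 1 of the 92 spots the KO mean is below the WT mean, and the exception is a single cytosine of HoxC.

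The spots with the most cytosines show the pattern at base resolution. In HoxC the 20 cytosines from 102776007 to 102776296 stood at 85.9, 84.7, 26.3 and 14.5%, and all 20 fell. A second HoxC spot of 20 cytosines, from 102795752 to 102796190, stood at 66.3, 67.5, 33.8 and 21.9%, and 13 of the 20 fell. The third, 8 cytosines from 102780163 to 102780248, stood at 63.9, 59.7, 21.5 and 12.8%, and all 8 fell. It was taken by position from a tie with another HoxC spot of 8, from 102793036 to 102793155. The latter stood at 62.5, 73.2, 44.2 and 26.4%, and 3 of its 8 fell. In HoxA the 17 cytosines from 52111102 to 52111280 stood at 65.1, 69.1, 18.4 and 12.8%, and all 17 fell. The 10 from 52135401 to 52135532 stood at 66.9, 68.4, 21.5 and 16.4%, and all 10 fell. The 8 cytosines from 52159439 to 52159645, upstream of Hoxa6, also all fell, from 81.1 and 82.7% to 40.5 and 26.1%. In HoxB the 10 cytosines from 96092624 to 96092726 fell from 92.5 and 93.5% to 45.5 and 30.8%. The 9 from 96109919 to 96110058, at 78.9, 63.2, 26.5 and 12.4%, also all fell, although the WT libraries differed there by more than in the other large spots. In the HoxB spot of 9 cytosines from 96130830 to 96130968, at 63.1, 64.4, 36.5 and 24.5%, 3 fell. In HoxD the 11 cytosines from 74577037 to 74577143 stood at 64.2, 64.7, 37.2 and 22.3%, and 6 fell. Of the 9 just before them, from 74576793 to 74576919, at 64.3, 65.2, 38.9 and 16.7%, 6 fell as well. The 6 from 74567397 to 74567554 stood at 73.8, 77.6, 25.2 and 13.7%, and all 6 fell. The spot whose KO mean stayed at 50% or more is the HoxC cytosine at 102784160, at 61.5, 63.6, 66.7 and 60% on 10 to 13 calls per library, named here after its values were seen.

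In Hox windows KO kept the largest share of the WT level where that level was under 20%, and the share did not change steadily above it. To keep the choice of windows apart from the values compared, windows were grouped by WT replicate 1, and KO was set against WT replicate 2. In the 98 Hox windows under 5% the KO mean was 67.9% of the WT replicate 2 mean, and in all windows of that group 43.8%. From 5 to 20% the shares were 54.4% in 61 Hox windows and 26.9% in all, and from 20 to 40% they were 37.1% in 30 Hox windows and 22.1% in all. From 40 to 60% they were 39.2% in 11 Hox windows and 21.8% in all. From 60 to 80% they were 30.1% in 18 Hox windows and 24.1% in all, and in the 9 Hox windows from 80 to 100% they were 33.7% and 30.6%. The Hox share was the larger one in all 6 groups, with the widest gaps below 20%. KO replicate 1 and KO replicate 2 gave 77.9% and 58.0% in the lowest Hox group, so its spread is wide. The mitochondrial cytosines, read as methylated at 2.04, 1.38, 0.612 and 0.830%, were also lower in both KO libraries. The part of background calls in the lowest groups was not tested.

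**Figure D3:**
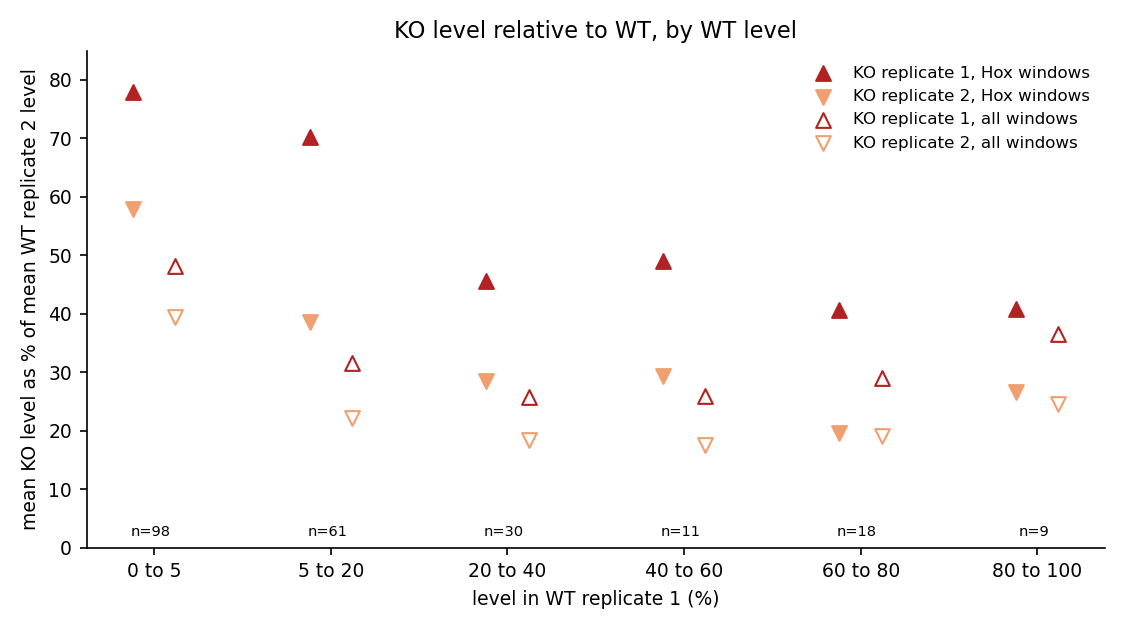
KO level as a percent of WT replicate 2 (vertical axis) for windows grouped by the level in WT replicate 1 (horizontal axis, percent), for Hox windows and for all windows, with KO replicates 1 and 2 apart. The Hox share is the larger one in every group for both KO libraries, and the gap is widest under 20%.

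Hox windows were also less methylated than others with as many covered cytosines, except in the densest. With 3 to 9 covered cytosines the WT mean was 38.0% in 64 Hox windows and 73.0% in all windows, and the KO means were 13.03% and 20.8%. With 10 to 19 they were 19.5% in WT and 9.04% in KO over 57 Hox windows, against 57.0% and 16.5% in all. With 20 to 39, over 51 Hox windows, they were 11.1% and 4.85%, against 21.7% and 6.11%. With 40 or more, the class closest to a CpG island, the 55 Hox windows stood at 3.32% in WT and 1.69% in KO, and all windows at 2.31% and 0.806%. Of these 55, 1 fell, or 1.82%, against 3.20% of all windows of that class. Both KO libraries were above both WT libraries in 1.56% of Hox windows with 3 to 9 covered cytosines, against 0.222% of all. With 10 to 19 these shares were 5.26% and 1.03%, and with 20 to 39 they were 7.84% and 3.96%. With 40 or more the order was reversed, at 1.82% of Hox windows and 6.38% of all. The Hox shares rest on 1, 3, 4 and 1 windows, and the differences were not tested.

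The promoters of the Hox genes were mostly unmethylated in both genotypes. Of the 14 with member cytosines, 10 had a WT mean under 5%, and none of their windows rose. The KO libraries were both lower than the WT libraries in 7, both higher in 1 and overlapped them in 6, where 89.0% of all windows had KO below and 1.25% above. The windows of 2 of the 14 promoters fell, those of Hoxd4 and Hoxd12, where 76.3% of all windows and 3.20% of those with 40 or more covered cytosines fell. Windows under 10% in WT could not be called lower, so the count mostly reflects the low WT levels. A promoter that crossed a window boundary was read with the window that held the most of its member cytosines. For Hoxd12, Hoxa11 and Hoxd1 this is not the window of the start. Across the 14 genes Spearman's rho between the number of CpGs in the 300 bases and the WT level was -0.71, given as a description, since CpG content and coverage by RRBS go together.

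Hoxd4 was the one highly methylated promoter. Its 3 member cytosines, from 74560008 to 74560036, gave 86.7, 88.6, 41.7 and 32.6%. The CpG in capitals in its sequence lies 27 bases before the start and stood at 92.0, 89.2, 32.4 and 38.2%. Hoxd12, a gene of the limb and the posterior trunk, stood at 23.5, 18.97, 12.6 and 8.16% over 21 cytosines from 74512863 to 74513117, and the window fell by 12.4 points (edgeR adjusted p = 0.0280). Methylation within the promoter was patchy, and the cytosine 169 bases before the start stood at 76.5, 76.5, 42.9 and 26.3%, while that 69 bases before it stood at 5.88, 0, 7.14 and 5.00%. The genotypes did not overlap at the promoter as a whole, although single cytosines there were read as few as 12 times in a library.

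The other promoters are described by their roles along the axis. Of the anterior genes, Hoxb1, a gene of the hindbrain, stood at 6.33, 5.92, 6.12 and 3.28%, Hoxd1 at 0.672, 0.617, 0.237 and 0.389% and Hoxd3 at 0.615, 0, 0.391 and 0.328%, where the 0 allows up to 1.19%. Only in Hoxd1 were both KO libraries below both WT libraries among these 3, on 7, 6, 2 and 4 methylated calls. In every library the Hoxd1 level was below that read over the mitochondrial cytosines, and the part of background calls was not tested. Of the central genes, Hoxc4 stood at 10.3, 4.65, 3.12 and 3.12%, Hoxa5, needed for lung development, at 3.86, 2.74, 0.824 and 0.175%, and Hoxa6 at 3.28, 4.64, 0.355 and 1.80%. In these 3 the KO libraries were lower, by under 5 points each. Hoxc4 rests on 9, 2, 2 and 2 methylated calls at 4 cytosines. No window of the 3 was called, since none fell by 10 points. The edgeR adjusted p of the window was 1.49e-05 for Hoxa5, 0.00849 for Hoxa6 and 0.195 for Hoxc4. Of the posterior genes, Hoxd9 stood at 1.35, 1.34, 0.554 and 0.468%, Hoxd10 at 0, 0, 0 and 0.702%, and Hoxd11 at 0.463, 0.251, 0.0471 and 0.271%. Hoxd13, which shapes the digits, stood at 0, 0.493, 0.370 and 0.781%, and Hoxa13, which does so with it, at 0, 0.450, 0.292 and 0%. The Hoxd13 values rest on 7 cytosines, none of them near the start. The counts of 0 allow levels of up to 1.07% in Hoxd10, 0.875% in Hoxd13 and 0.498% in Hoxa13. Hoxd9 in WT replicate 1 held the highest level among these 5 promoters. Of the 5, only Hoxd9 had both KO libraries below both WT libraries, on 13, 7, 4 and 4 methylated calls. All 5 were below the mitochondrial level in every library, as Hoxd1 was.

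Hoxa11, a gene of the forelimb and the uterus, was the Hox promoter with both KO libraries above both WT libraries. Its 8 cytosines from 52195966 to 52196044 gave 1.31, 1.69, 6.68 and 2.81%. The cytosine 226 bases before the start contributed most, with 0 of 35, 1 of 30, 7 of 33 and 2 of 24 calls methylated, or 0, 3.33, 21.2 and 8.33% (edgeR adjusted p = 0.0969). The window used for this promoter, with 74 cytosines, stood at 1.93, 2.21, 5.26 and 1.79% and did not pass the test (edgeR adjusted p = 0.153). Over that window only KO replicate 1 was above the WT libraries, and KO replicate 2 was below both. At the promoter too, KO replicate 2 lay nearer to the WT libraries than to KO replicate 1.

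**Figure D4:**
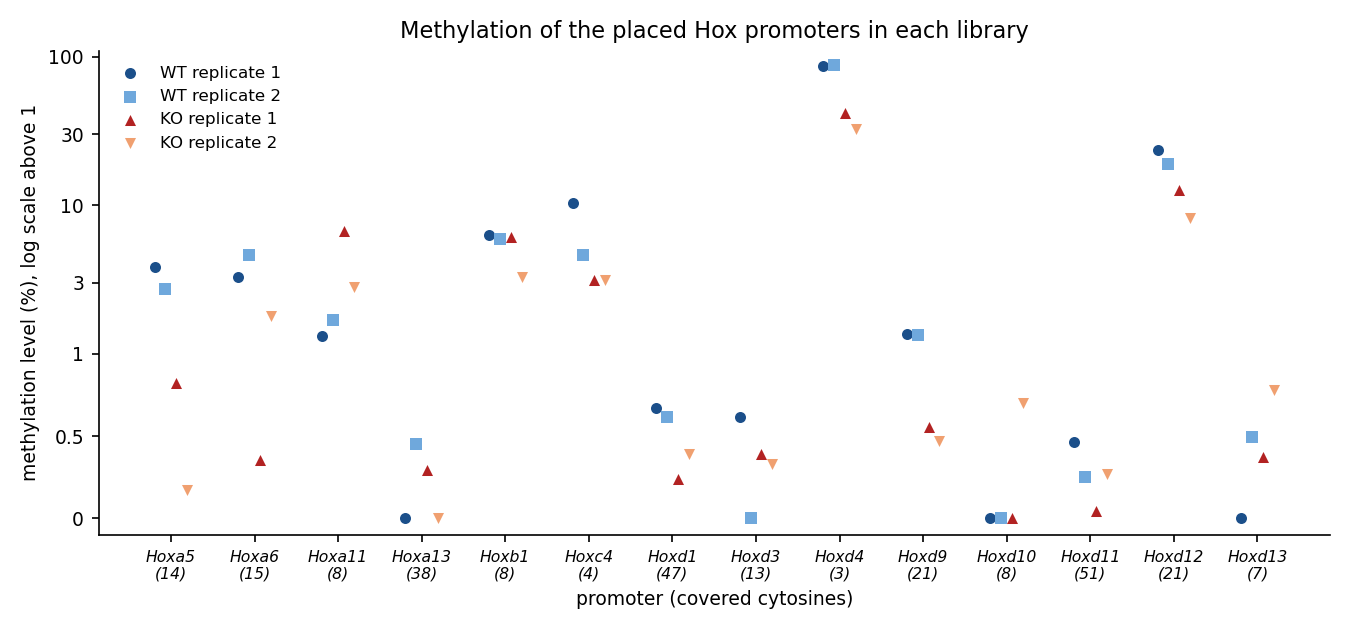
Methylation level (percent) of each of the 14 Hox promoters with member cytosines, with 1 mark per library. Hoxd4 and Hoxd12 stand above the rest in every library, and Hoxa11 is the promoter with both KO marks above both WT marks.

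Among the 9 windows with both KO libraries above both WT libraries, 4 lay in HoxB, 2 in HoxA, 2 in HoxC and 1 in HoxD. The largest difference was in the HoxB window at 96213001, whose 21 cytosines stood at 2.01, 2.41, 11.7 and 7.19%. These are 19 of 946, 14 of 581, 70 of 596 and 40 of 556 calls. The KO mean was 7.26 points higher with an edgeR adjusted p of 8.54e-05, but the difference was under the 10 points set for a call. The adjusted p was 0.0573 without WT replicate 1 and 0.0239 without WT replicate 2, and the other alternatives gave between 1.05e-06 and 2.34e-04. The difference was 4.99 points without KO replicate 1. The window lies 708 bases downstream of the inferred start of Hoxb3os, a transcript from the strand opposite to Hoxb3. The Hoxb3os promoter itself stood at 1.43, 0.919, 0.457 and 0.153%, with KO below WT.

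Within this window the member cytosines span 144 bases, and 12 of the 21 had both KO libraries above both WT libraries, where 0.516% of all cytosines did. Neighbouring cytosines on the same reads are not independent, so the 12 are not 12 observations. The window was also chosen for this order and for the largest difference, so the 12 describe it and test nothing. Of the 21, 8 had a KO mean of 10% or more and none a WT mean of 10% or more, and 7 had no methylated call in either WT library. Levels of single cytosines reached 37.5% in KO replicate 1 and 22.7% in KO replicate 2, against 6.67% and 9.09% in WT. The window stayed higher without its top cytosine, with a WT mean of 2.00% and a KO mean of 8.61%.

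**Figure D5:**
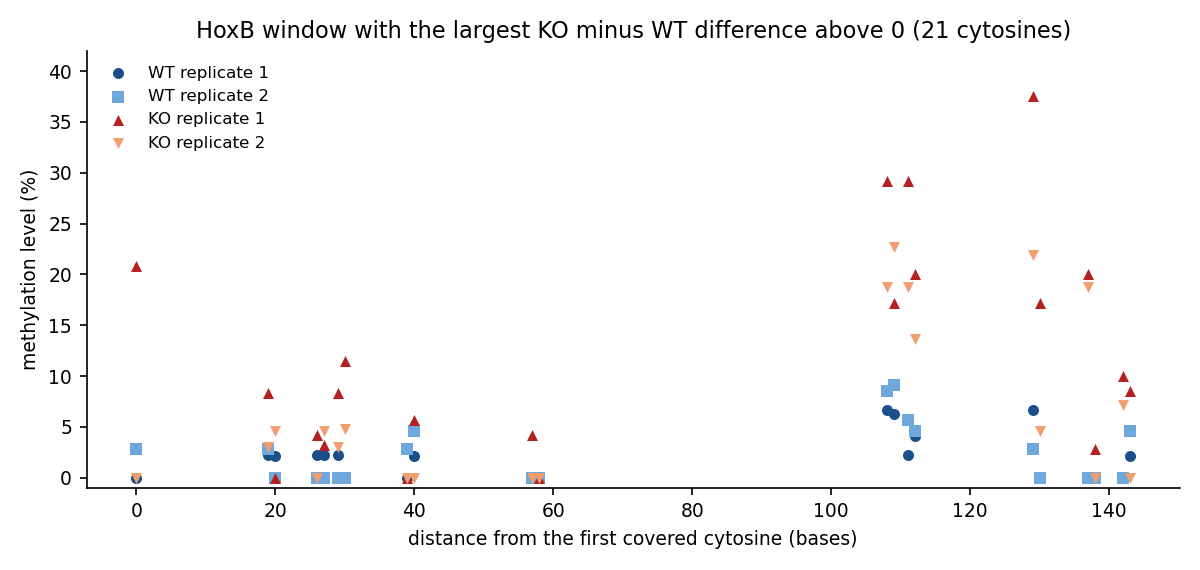
Methylation level (percent) of the 21 cytosines of the HoxB window at 96213001 against the distance in bases from the first of them, with 1 mark per library. The KO marks lie above the WT marks at 12 cytosines, and KO replicate 1 reaches 37.5%.

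The other windows with KO above WT had smaller differences and none passed the test. In HoxB the window at 96172001 stood at 7.71, 9.64, 18.1 and 11.9% (edgeR adjusted p = 0.0885), that at 96061001 at 9.07, 9.26, 11.9 and 9.68%, and that at 96181001 at 3.07, 2.55, 4.28 and 3.17%. In HoxA the window at 52180001 stood at 3.77, 4.80, 7.27 and 5.55%. The second HoxA window, at 52171001, held 0 of 371 and 0 of 349 methylated calls in WT, which allows levels of up to 0.809% and 0.860%, and stood at 0.220 and 0.487% in KO. In HoxC the window at 102828001 stood at 4.68, 4.87, 8.91 and 6.60%. It covers the start of the predicted gene Gm29905, whose promoter stood at 9.29, 3.89, 11.8 and 14.4%. The HoxC window at 102786001 and the HoxD window at 74526001 differed by 0.34 and 1.497 points. KO replicate 1 was the highest library in all 9 windows but that at 52171001.

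Single cytosines gave the same picture with less depth. Of the 6197 Hox cytosines 414 fell, 71 in HoxA, 128 in HoxB, 116 in HoxC and 99 in HoxD, which is 6.68% where 34.4% of all cytosines fell. The count was 183 without WT replicate 1 and 206 without WT replicate 2. The KO libraries were both lower than the WT libraries at 1550, or 25.01%, against 43.0% of all, and both higher at 204, or 3.29%, against 0.516% of all. These shares were not matched for CpG density or WT level. By cluster the higher ones were 5.69% in HoxB, 3.16% in HoxA, 2.79% in HoxC and 1.71% in HoxD.

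Just 4 Hox cytosines rose, all in HoxB, or 0.0645% of the Hox cytosines where 0.00137% of all rose, which is 26 in the genome. Without a minimum difference the count was still 4, against 0.00184% of all. The unadjusted edgeR p of the 4 lay between 0.00118 and 0.0132. The adjustment ran over all cytosines, of which 34.4% fell, so it does not bound the share of wrong calls among the few that rose. Of these 4, 3 lie in the window at 96213001. The cytosine at 96213469 had 3 of 45, 1 of 35, 9 of 24 and 7 of 32 calls methylated, or 6.67, 2.86, 37.5 and 21.9% (edgeR adjusted p = 0.0315). Its partner on the other strand of the same CpG, at 96213470, had no methylated call in WT and stood at 17.1 and 4.55% in KO. The cytosine at 96213477 had 0 of 45, 0 of 35, 5 of 25 and 6 of 32 calls methylated. Its WT counts allow levels of up to 6.67% and 8.57%. The partner of this cytosine, at 96213478, did not share the rise and stood at 0, 0, 2.86 and 0%. The fourth, at 96181527, has a partner at 96181526 that stood at 0, 0, 0 and 6.45%. The fourth itself had 0 of 41, 0 of 35, 3 of 19 and 2 of 19 calls methylated. These are few reads, and the calls depended on single libraries: 0 Hox cytosines rose without WT replicate 1 or without WT replicate 2, 2 in HoxB without KO replicate 1, and 15 in all without KO replicate 2. With a minimum difference of 25 points none rose, and limma called 12, 10 of them in HoxB.

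The largest differences among Hox cytosines with higher KO levels were mostly at sites that did not pass the test. In HoxB the cytosine at 96211375 had the largest difference of the 4 clusters, with 0 of 14, 2 of 15, 6 of 15 and 4 of 12 calls methylated, or 0, 13.3, 40.0 and 33.3% (edgeR adjusted p = 0.119). The one at 96172123, in the HoxB window at 96172001, stood at 8.11, 14.3, 35.5 and 30.8%. In both, the KO libraries lay close to each other and apart from the WT libraries, on few calls. The partner of the latter on the other strand, at 96172124, stood at 10.4, 10.9, 34.5 and 17.9%.

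In HoxC the cytosine at 102828666, 68 bases upstream of the Gm29905 start, stood at 10.0, 7.69, 31.2 and 37.5% on 16 to 26 calls. Those at 102827130 and 102841816 stood at 9.68, 12, 31.03 and 21.3% and at 4.55, 8.70, 9.38 and 30.8%. In HoxD the cytosine at 74522293 stood at 5.26, 0, 33.3 and 20.0% on 15 to 19 calls. In the HoxD cytosines at 74570763 and 74574100 the levels were 8.57, 10.6, 27.3 and 16.1% and 6.38, 18.9, 30.0 and 19.2%, and in the latter KO replicate 2 was hardly above WT replicate 2. In HoxA, beside the Hoxa11 cytosine, those at 52180001 and 52152908 stood at 5.56, 0, 21.4 and 11.1% and at 9.52, 7.41, 23.8 and 16.7%. The edgeR adjusted p of these 8 cytosines lay between 0.0952 and 0.590. The counts of 0 allow WT levels of up to 21.4% at 96211375, 17.6% at 74522293 and 11.1% at 52180001.

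A list of 20 genes for cofactors and regulators of Hox genes was read in the same way. It holds the Pbx, Meis and Pknox partners, the Cdx and Evx homeobox genes and members of the Polycomb and Trithorax groups. Of these, 15 had a sequence, 8 were placed, 4 of them (Meis3, Suz12, Bmi1 and Rnf2) by the wider rule, and 7 had covered cytosines. All 7 promoters had a WT mean under 0.5%, with the highest at 0.470%, and the highest KO mean was 0.807%. The KO libraries were both higher than the WT libraries in Meis1, at 0.625, 0.315, 0.847 and 0.766%, and in Pbx2, at 0.327, 0, 0.387 and 0.489%. These orders rest on 4, 2, 5 and 5 methylated calls in Meis1 and on 3, 0, 3 and 4 in Pbx2. None of the 7 windows was called.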

How the data were processed

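Per the labels, MspI-digested, bisulfite-converted genomic DNA was sequenced. The authors deposited, per library and cytosine, the percent methylated and the counts of methylated and unmethylated calls. The submitters' processing notes name Trim Galore, Bismark 0.10.1 and mm9, with no settings. Levels were recomputed from the counts. Reads carry no molecular identifiers, so intervals and limits cover counting error only. A limit for a count of 0 is 3 counts over the calls.

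Over all 121563 windows and 1899909 cytosines, edgeR 4.0.16 (R 4.3.3) tested genotype by methylated state with a term per library, with Benjamini-Hochberg adjustment. Features that were all methylated or all unmethylated kept a p of 1. Library means were compared with scipy 1.17.1. The scripts were tested on simulated data. Replicate numbers were not used as pairs.

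Named are, per cluster, the 5 windows highest in WT, up to 5 windows and 3 cytosines with the largest difference among those with KO above WT, everything that rose, the 3 largest spots and all placed promoters. Other features named were chosen after seeing values. The members and lists were chosen with earlier results of these data known. A promoter was placed where at least 8 listed cytosines (12 for genes outside the clusters) all fell on its CpGs at 1 position. The wider rule asked for 3 times the cytosines of any other position, or at least 20 with 1 off a CpG. Strands matched the table for all placed Hox promoters. The alternatives tried are given with their effects in the closing section.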

Additional observations from a re-analysis of the deposited data

How the results depend on the processing

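The KO mean was the lower one in all 4 clusters under each of the 8 alternatives run for them. The difference per library left out ranged from -4.71 to -3.31 points in HoxA, from -6.46 to -4.07 in HoxB, from -7.11 to -5.65 in HoxC and from -6.06 to -3.99 in HoxD. Of the alternatives for named windows 194 kept direction and side of the threshold and 3 lost the call. Windows that fell, 68 in all, numbered 126 with no minimum difference (HoxA 31, HoxC 32, HoxD 33), 43 with 25 points (HoxA 7, HoxD 9) and 30 with at least 10 cytosines per window (HoxA 8, HoxB 6, HoxC 6, HoxD 10). They numbered 12 in HoxB at a coverage of 20 and 9 in HoxD with windows of 2 kb, which test fewer or other windows. Windows that rose numbered 1 in all and in HoxB with no minimum difference. With a library left out, windows that fell ranged from 45 to 76 in all, 6 to 15 in HoxA, 18 to 26 in HoxB, 10 to 17 in HoxC and 11 to 18 in HoxD. Cytosines that fell ranged from 183 to 515 in all, 38 to 103 in HoxA, 59 to 146 in HoxB, 54 to 119 in HoxC and 32 to 147 in HoxD. Cytosines that rose ranged from 0 to 15 in all, 0 to 4 in HoxA, 0 to 11 in HoxB and 0 to 2 in HoxC. With limma they numbered 12 in all, 10 in HoxB, 1 in HoxC and 1 in HoxD, and with 25 points 0 in all and 0 in HoxB. The cause of these shifts was not tested. Of the 47 windows that fell without WT replicate 1, all 47 were among the 68, as were 43 of the 45 without WT replicate 2. The same replicate numbers did not pair the libraries, with a correlation of deviations of -0.0039 over all windows and 0.0423 over Hox windows. With the replicate number as a block, 67 windows fell, all among the 68, and 407 cytosines fell, 392 of them among the 414.

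With 2 libraries a group, the spread rests on 1 pair of each. Over Hox cytosines the KO pair differed by more than counting error (chi-square per degree of freedom 2.34), and the WT pair by little more (1.10). Promoters of 22 of the 39 Hox genes were not placed, and their positions rest on CpG spacing alone.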
